A study of Mus musculus with 2 samples.

Results

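The MAGE and PRAME families are cancer testis gene families, and their RNA was measured here in mouse embryonic stem (ES) cells with and without the zinc finger protein CTCFL. Members were all genes whose probe sets carried 1 gene symbol beginning with Magea, Mageb, Maged, Magee, Mageh, Magek or Prame, and Magel2 was left out. This gave 30 genes, read by 31 probe sets, of 19938 genes read by 21789 probe sets of that kind. They fell into 5 ubiquitous MAGE genes (Maged, Magee and Mageh), 10 testis-restricted MAGE genes (7 Magea and 3 Mageb, with no Magek gene among them) and 15 PRAME genes. They were taken by symbol and not by a measured value, though the rule was set with earlier results of these data known.

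Both groups were ROSA26-rtTA ES cells that carry a doxycycline-responsive CTCFL-V5-GFP transgene, selected with G418 and grown with LIF on gelatin. The induced cells received doxycycline for 3 days and were sorted for GFP. The non-induced cells received no doxycycline and were not sorted. How many clones the RNA came from was not given in the sources used here. Each group was hybridized to 1 Affymetrix Mouse Gene 1.0 ST array, so no value below has a replicate or a test. CTCFL, doxycycline and sorting cannot be told apart by this design.

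CTCFL is a testis paralogue of the insulator protein CTCF and is itself a cancer testis gene. MAGE proteins share a MAGE homology domain and many of them bind RING-type ubiquitin ligases and steer their targets. The Magea and Mageb genes are normally silent outside male germ cells, often through DNA methylation of their promoters, and become active in tumours, whereas the Maged, Magee and Mageh genes are used by many somatic tissues. PRAME proteins are built of leucine-rich repeats, and several serve as substrate receptors of cullin ligases. The mouse has many tandem copies of Prame-like (Pramel) genes, some of them used in oocytes, early embryos and ES cells.

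Promoter windows are shown for 5 members, picked by their signal or the width of their difference. They are Maged1, a ubiquitous gene with a signal above the median of all genes in both arrays, Mageb4, the testis-restricted gene whose signal reached that median in the induced array, Magea6, the testis-restricted gene with the widest difference, and the pair of PRAME genes with the widest differences, Pramel20 and Pramel6. Each window runs 5′ to 3′ from 250 bases before the RefSeq start to 50 bases after it (build GRCm38.p6), and the capitals mark CG dinucleotides, the sites of DNA methylation. The windows lie at chrX:94541976-94542275 on the minus strand (Maged1), chrX:86256170-86256469 on the minus strand (Mageb4), chrX:154926066-154926365 on the minus strand (Magea6), chr4:143567217-143567516 on the plus strand (Pramel20) and chr2:87506315-87506614 on the plus strand (Pramel6).
Maged1: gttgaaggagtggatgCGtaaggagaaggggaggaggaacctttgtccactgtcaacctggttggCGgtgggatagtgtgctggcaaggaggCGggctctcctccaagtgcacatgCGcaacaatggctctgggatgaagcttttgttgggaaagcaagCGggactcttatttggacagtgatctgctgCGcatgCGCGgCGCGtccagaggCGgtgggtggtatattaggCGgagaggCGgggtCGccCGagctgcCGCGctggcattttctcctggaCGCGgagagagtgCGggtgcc
Mageb4: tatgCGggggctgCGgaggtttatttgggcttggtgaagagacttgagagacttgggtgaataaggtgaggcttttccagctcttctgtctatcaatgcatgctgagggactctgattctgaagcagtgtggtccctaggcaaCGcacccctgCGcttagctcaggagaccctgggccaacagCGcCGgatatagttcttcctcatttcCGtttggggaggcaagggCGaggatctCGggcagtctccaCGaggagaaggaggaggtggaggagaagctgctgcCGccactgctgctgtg
Magea6: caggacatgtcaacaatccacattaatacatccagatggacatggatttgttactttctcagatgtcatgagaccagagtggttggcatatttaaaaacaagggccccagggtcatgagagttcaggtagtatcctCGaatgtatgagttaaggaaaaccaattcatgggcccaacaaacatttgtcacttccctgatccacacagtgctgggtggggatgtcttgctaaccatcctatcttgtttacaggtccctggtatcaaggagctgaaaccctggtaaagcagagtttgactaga
Pramel20: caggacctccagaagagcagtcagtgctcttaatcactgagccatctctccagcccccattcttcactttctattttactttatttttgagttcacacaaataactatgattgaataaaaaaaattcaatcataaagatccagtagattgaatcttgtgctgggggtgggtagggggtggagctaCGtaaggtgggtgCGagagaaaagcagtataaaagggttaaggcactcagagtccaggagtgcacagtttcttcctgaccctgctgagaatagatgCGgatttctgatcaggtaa
Pramel6: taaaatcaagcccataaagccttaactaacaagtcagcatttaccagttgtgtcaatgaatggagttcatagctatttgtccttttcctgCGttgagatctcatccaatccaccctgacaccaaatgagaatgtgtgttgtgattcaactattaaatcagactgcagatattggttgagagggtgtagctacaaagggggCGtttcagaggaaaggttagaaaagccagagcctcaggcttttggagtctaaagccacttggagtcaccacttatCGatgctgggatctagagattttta
Maged1 held 20 CG dinucleotides in its 300 bases, Mageb4 11, Magea6 1, and Pramel20 and Pramel6 3 each. The windows of the testis-restricted Mageb3 and of Pramel1, which are not shown, held 20 each.

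The labels were checked first on the targeted gene. The log2 signal of Ctcfl was 9.44 in the induced and 5.99 in the non-induced array (difference 3.45), and Ctcf had 8.66 and 8.93, a difference of -0.27. All differences below are induced minus non-induced on the log2 scale. The median difference over all genes was 0.01, and the middle 50% of genes lay between -0.24 and 0.26. A floor was set at the median of all gene values, 6.36. It is a line common to all genes, but each probe set has its own brightness, so a signal under it does not show that the RNA was absent. All 14 ES cell markers were at or above the floor in at least 1 array, with a median difference of -0.13 and no difference of log2 1 or more (widest Fbxo15 at -0.68 and Tfcp2l1 at 0.49). Of 18 fibroblast markers 15 were above 0 (median 0.39), and their summed log2 level was 124.32 in the induced and 118.10 in the non-induced array, with Ccn1 (0.94) and Loxl1 (0.85) the widest. Of 11 endoderm markers 9 were above 0 (median 0.30), with summed levels of 75.69 and 72.86, and Foxa2 (-0.85) and Apoe (0.77) were the widest. The floor was reached by 12 of the fibroblast markers and by 7 of the endoderm markers. The fibroblast markers below it were Lum, Dcn, Postn, Pdgfra, Pdgfrb and S100a4, which differed by -0.28 (Dcn) to 0.72 (Pdgfrb), and the endoderm markers below it were Sox17, Dab2, Cubn and Afp, which differed by 0.27 to 0.42. The part of these markers in the results below was not tested, and in bulk RNA a change in the share of cells of a type and a change in RNA per cell cannot be told apart.

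Most of the MAGE and PRAME genes were dim in both arrays, and the 6 with signal at the floor differed by -0.56 to 0.29. The floor was reached in at least 1 array by 6 of the 30 genes, against 53.7% of all genes. These were Maged1, Maged2 and Mageh1 of the ubiquitous MAGE genes, Mageb4 of the testis-restricted ones, and Pramel12 and Pramel13. Among these 6 none was higher or lower by log2 1 or more. Over all genes at the floor 0.477% were higher and 1.79% lower by that size. Without the floor 0 of the 30 genes were higher and 2 were lower, beside 0.707% and 1.49% of all genes. The pair was Pramel20 and Pramel6. The 30 genes were split evenly, 15 above and 15 below 0, with a median difference of 0.04.

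**Figure D1:**
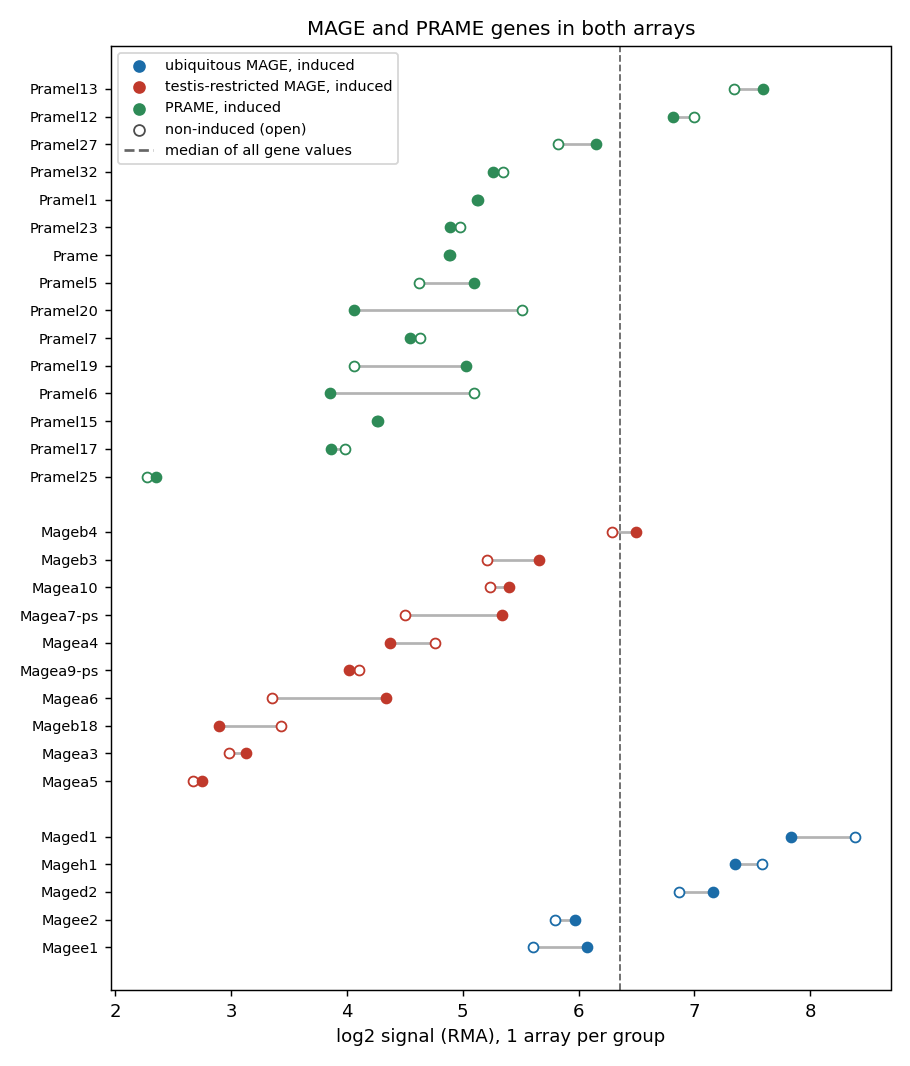
RMA log2 signal (x axis) of the 30 genes (y axis, grouped and ordered by mean) in the induced array (filled points) and the non-induced array (open points), with grey lines joining the arrays and a dashed line at the median of all gene values, 6.36. 3 of 5 ubiquitous MAGE, 1 of 10 testis-restricted MAGE and 2 of 15 PRAME genes reached that line, and the longest lines belong to Pramel20 and Pramel6, which were lower in the induced array.

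The ubiquitous MAGE genes lay on either side of 0, between -0.56 and 0.47. Maged1, which binds the p75 neurotrophin receptor and takes part in apoptosis, had a signal of 7.83 in the induced and 8.39 in the non-induced array (difference -0.56). Mageh1, a small MAGE protein also linked to that receptor, had 7.35 and 7.58, a difference of -0.23. Maged2, whose human counterpart is mutated in a transient antenatal form of Bartter syndrome, had 7.16 and 6.87, a difference of 0.29. These genes were above the floor in both arrays, with both signs among them.
Magee1, which binds dystrobrevin in muscle and brain, had 6.07 and 5.60, a difference of 0.47. Magee2 had 5.97 and 5.80, a difference of 0.17. Both Magee genes were slightly higher in the induced array and below the floor in both. The median over the 5 genes was 0.17 and the mean 0.03, with 3 genes above and 2 below 0.

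The testis-restricted MAGE genes were below the floor with 1 exception, and 7 of 10 were above 0. Mageb4, a germ cell MAGE gene on the X chromosome, had a signal of 6.497 in the induced and 6.287 in the non-induced array (difference 0.21). Its other probe set had 6.14 and 5.75, a difference of 0.39, with the same sign. It was the only member with more than 1 probe set, and the gap between its probe sets, 0.18, was below the median gap of 0.22 over the 777 genes with a pair of probe sets. The widest differences in the group were those of Magea6 and the pseudogene Magea7-ps. Magea6 had 4.34 in the induced and 3.35 in the non-induced array (difference 0.99, 1.99-fold). Magea7-ps had 5.34 and 4.50, a difference of 0.84. Mageb3, which lies on chromosome 2, had 5.66 and 5.21, a difference of 0.45. All 3 were higher in the induced array and below the floor in both.
In the other direction, Mageb18 had 2.90 in the induced and 3.43 in the non-induced array (difference -0.53). Magea4, whose human counterpart marks spermatogonia, had 4.37 and 4.76, a difference of -0.39. The pseudogene Magea9-ps had 4.02 and 4.10, a difference of -0.08. The remaining genes, Magea3, Magea5 and Magea10, differed by 0.07 to 0.16. The group had a median of 0.15 and a mean of 0.19, and no member reached log2 1.

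The medians of the ubiquitous and the testis-restricted MAGE genes differed by 0.02, less than the spread of the genes within either group, whose SDs across genes were 0.42 (n = 5 genes) and 0.48 (n = 10 genes). The sign of this difference turned with the processing, to -0.16 with means in place of medians and to -0.15 with a lowess trend removed or after a second quantile normalization. Genes are not replicates of a condition and share their arrays, so no test of the groups was made. The floor was reached by 3 of the 5 ubiquitous genes in both arrays and by 1 of the 10 testis-restricted genes, Mageb4, in the induced array only. In the non-induced array it was reached by 0 of those 10. Not among the 10 is Mageb16, which shares its probe sets with a pseudogene. These probe sets had 10.02 and 10.24 in the non-induced and 9.02 and 9.28 in the induced array, above the floor in both.

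The PRAME genes held both the widest differences of the families and many genes near 0. Pramel20 had a signal of 4.06 in the induced and 5.51 in the non-induced array (difference -1.45, 2.73-fold lower). Pramel6, a gene of the inner cell mass and of ES cells, had 3.86 and 5.10, a difference of -1.24 (2.36-fold lower). Both were lower in the induced array, and both were below the floor in both arrays. With an offset of 32 added to the linear signals they were at -0.67 and -0.51. The 4 probe sets that name Pramel20 together with other genes went the other way, at 0.46 to 0.60. Pramel19 was the widest of the PRAME genes above 0, with 5.02 in the induced and 4.06 in the non-induced array (difference 0.96, 1.95-fold). Pramel5 had 5.10 and 4.62, a difference of 0.47, and Pramel27 had 6.15 and 5.83, a difference of 0.33.
The PRAME genes at the floor differed by less. Pramel13 had 7.59 in the induced and 7.34 in the non-induced array (difference 0.25). Pramel12 had 6.82 and 6.99, a difference of -0.18. They lay above the floor in both arrays and on opposite sides of 0. Pramel7, which is known in ES cells for promoting the loss of the methylation cofactor UHRF1, had 4.55 and 4.63, a difference of -0.08. Prame itself, the founding member and a repressor of retinoic acid receptor signalling, had 4.88 and 4.89. Over the 15 genes, 5 were above and 10 below 0, with a median of -0.01, and 8 of them lay between -0.13 and 0.08.

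Differences of this size have to be read against the spread of other dim genes. Genes were put into 4 classes of equal size by mean signal. In the lowest class, which holds 18 of the 30 members, the middle 95% of differences ran from -0.92 to 0.83. In the next class, with 6 members, it ran from -0.74 to 0.86. Outside the range of their own class were 5 members, Magea6, Magea7-ps and Pramel19 above it and Pramel20 and Pramel6 below it, and 1000 of all 19938 genes, which the range sets. No ubiquitous MAGE gene was outside it. The 5 genes outside it were below the floor, where the robust multi-array averaging (RMA) used to make the values compresses differences.

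**Figure D2:**
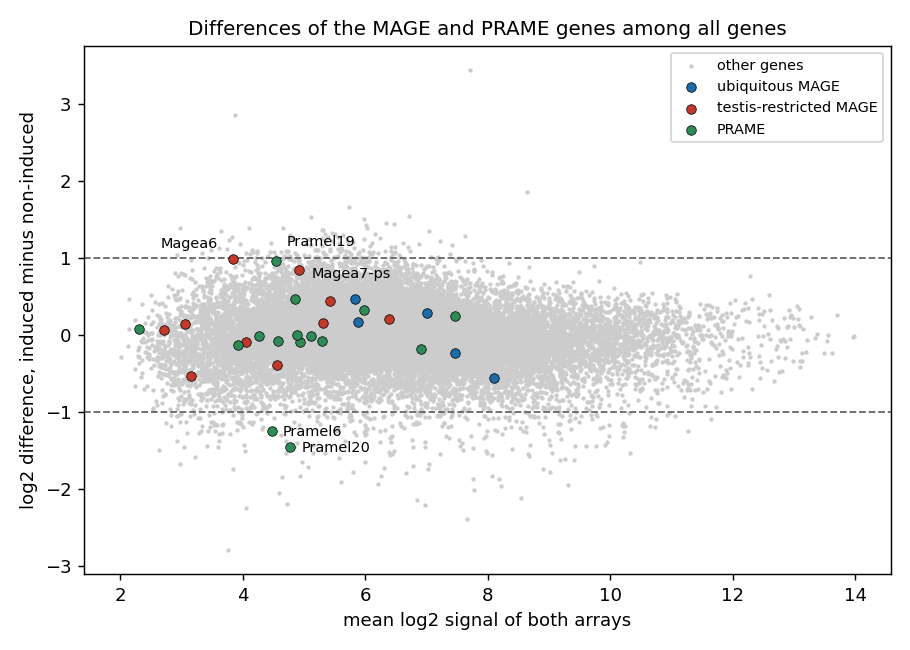
Log2 difference between the arrays (induced minus non-induced, y axis) against mean log2 signal (x axis) for all 19938 genes (grey) and the 30 MAGE and PRAME genes (coloured by group), with dashed lines at a log2 difference of 1 either way. Pramel20 (-1.45) and Pramel6 (-1.24) lie below the lower line, and Magea6 (0.99) and Pramel19 (0.96) lie just under the upper one.

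Many copies of these families are so alike that a probe set carries the symbols of several genes, and such probe sets are not among the 30 genes. There were 59 of them, 53 naming PRAME and 6 naming MAGE genes, in 13 sets of symbols. Of the 53 PRAME ones 49 were above 0, and of the 9 PRAME sets of symbols 8 had a median above 0. Those below 0 were the pair naming Pramel26 and Oog2 on chromosome 4 (-0.43 and -0.44) and a pair naming Pramel3 (-0.06 and -0.03). Of the other probe sets with several symbols that were below the floor 416 of 732 were above 0 (56.8%). Repeated values left 39 distinct pairs among the 53, of which 35 were above 0. The pairs are not independent readings either. Sets of 16, 11, 7 and 3 of the 53 name genes of chromosome 5, and some of these sets have symbols in common. No test was made of these counts. After centring each array on its median, 48 of the 53 were above 0. The genes described here were chosen after their values were seen. The 11 probe sets naming Pramel37, Pramel39, Pramel50 and BC080696, which lie on chromosome 5, had signals of 5.66 to 6.25 in the induced and 4.31 to 4.75 in the non-induced array. The ranges of the arrays did not overlap. The differences were 1.19 to 1.51 with a median of 1.38 (2.60-fold), past log2 1 in all 11. Of the genes with a probe set of their own 0.707% were higher by that size. The share among the other probe sets with several symbols was not computed, so no like background stands beside these counts. These 11 probe sets gave 7 distinct pairs of values, so they are not independent readings, and none reached the floor. Centring each array on its median left all 11 past log2 1 (1.10 to 1.41), and adding an offset of 32 to the linear signals took all of them under it (0.67 to 0.88).
The 7 probe sets naming Pramel34, Pramel47, Gm6367 and AA792892 had 4.30 to 4.91 in the induced and 3.24 to 4.58 in the non-induced array. Their differences were 0.33 to 1.06 with a median of 0.87, and 3 of them were past log2 1. None was past it after centring (highest 0.959) or with the offset of 32 (highest 0.34), and repeated values left 6 distinct pairs. The chromosome 5 PRAME probe sets were thus all higher in the induced array, though dim. For the chromosome 4 genes the shared and the single readings did not always go the same way. The 4 probe sets shared by Pramel16, Pramel20, Pramel31 and neighbouring predicted genes differed by 0.46 to 0.60, while the probe set of Pramel20 alone differed by -1.45. The pair of probe sets shared by Pramel4, Pramel5 and Gm13102 differed by a median of 0.42, beside 0.47 for Pramel5 alone.

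Among the MAGE genes the bright shared signal was that of Mageb16 and its pseudogene Mageb16-ps1. Their probe sets had 9.02 and 9.28 in the induced and 10.02 and 10.24 in the non-induced array, differences of -0.995 and -0.962. These were the only shared probe sets at the floor, and both were lower in the induced array. They came just short of the size of log2 1 as deposited. After centring they were past it, at -1.06 to -1.09, and with the offset of 32 they were not (-0.93 to -0.95). Centring took the median difference of all genes from 0.01 to -0.09. The number of all genes at the floor that were lower by log2 1 or more went from 191 to 268 with it. This signal was above the floor in both arrays although the symbols belong to a subfamily called testis-restricted, and it cannot be assigned to the gene or to the pseudogene. The pair of probe sets shared by Magea1, Magea2, Magea3, Magea5, Magea6 and Magea8 differed by -0.13 and -0.06, beside 0.99 for the probe set of Magea6 alone. These were of opposite sign to Magea6 alone, and to Magea3 and Magea5 alone (0.15 and 0.07). The probe set shared by Magea3 and Magea8 differed by 0.40, with the same sign as Magea3 alone.

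**Figure D3:**
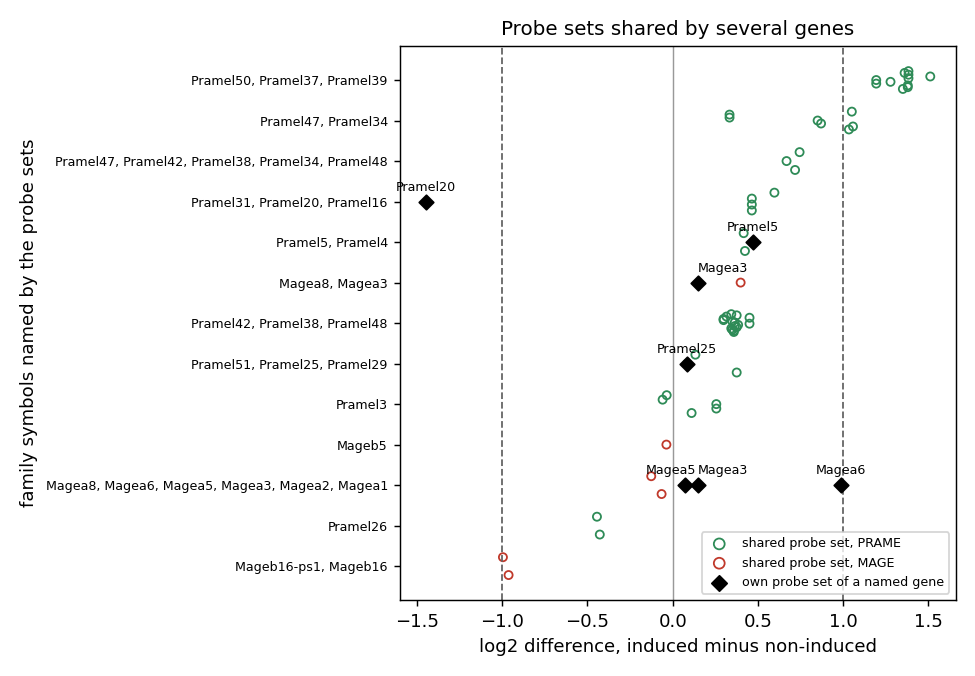
Log2 difference between the arrays (induced minus non-induced, x axis) of the 59 probe sets that name several genes (open circles), by the MAGE or PRAME symbols they name (y axis), with black diamonds for the probe set that names one of those genes alone and dashed lines at a log2 difference of 1 either way. The 11 probe sets of Pramel37, Pramel39 and Pramel50 lie at 1.19 to 1.51, the pair of Mageb16 at -0.995 and -0.962, and Pramel20 alone (-1.45) lies apart from its shared probe sets (0.46 to 0.60).

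Members were also set beside the other genes of their chromosomes. All 5 ubiquitous and 9 of 10 testis-restricted MAGE genes and Prame lie on the X chromosome. These 15 X-linked members had a median of 0.15, with 9 above and 6 below 0, and the 724 other X-linked genes had a median of -0.08. The 301 other X-linked genes at the floor had a median of -0.18 and the 423 below it 0.01. The 12 PRAME genes on chromosome 4 had a median of -0.01, and the other 1142 genes of that chromosome 0.02. Pramel6 and Pramel7 lie on chromosome 2, at -1.24 and -0.08.

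The promoter windows differed between the groups in CG content. The 5 ubiquitous MAGE genes had 12 to 20 CG dinucleotides, taking for Maged2 the median of its 4 windows (8 to 19), and all 5 were above the median of 7 over 32851 RefSeq promoter windows. Of the 8 testis-restricted MAGE genes with a window, Mageb3 had 20, Mageb4 11 and the others 0 to 5. Of the 14 PRAME genes with a window, Pramel1 had 20, Prame 9, Pramel13 7 and the others 0 to 3. The group medians were 14, 1.5 and 2. The letters CCCTC, part of the binding motif of CTCF, were searched on either strand. They were in 6 of 8 windows of the ubiquitous MAGE genes, 6 of 8 of the testis-restricted ones and 10 of 14 of the PRAME genes, beside 66.0% of all windows.

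**Figure D4:**
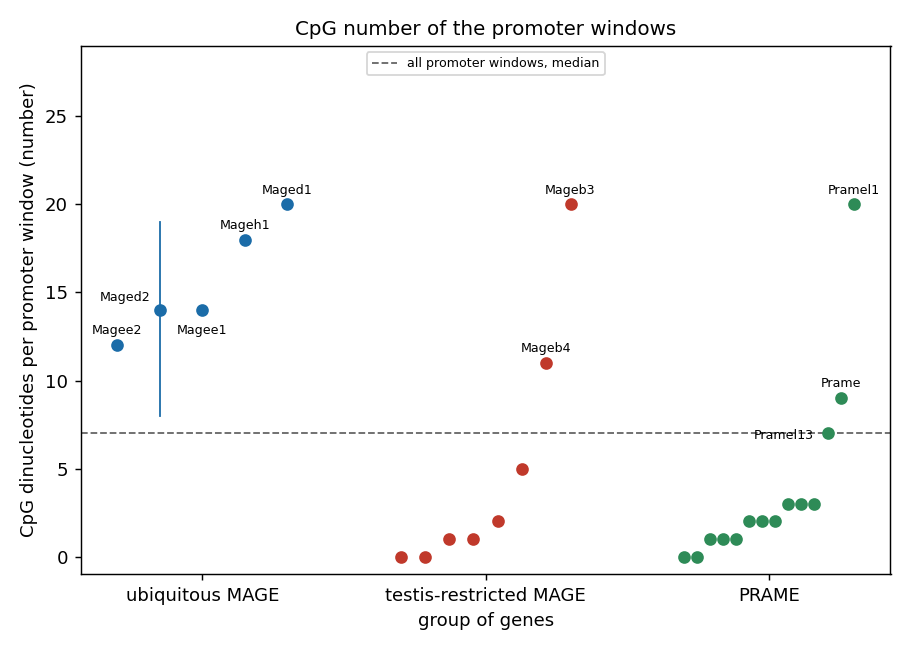
Number of CpG dinucleotides in the RefSeq promoter window of 300 bases (y axis) for each gene, by group (x axis); the dashed line marks 7, the median over all windows, and the vertical bar spans the 4 windows of Maged2. All 5 ubiquitous MAGE genes lie above the line, against 2 of 8 testis-restricted MAGE and 2 of 14 PRAME genes.

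The partners of the MAGE and PRAME proteins were mostly bright and none differed by log2 1 or more. The list of ubiquitin ligase partners of MAGE proteins also held proteins that are not ubiquitin ligases themselves, among them Smc5, Smc6 and Usp7. Of its 12 genes 11 were at the floor, 5 above and 7 below 0, with a median of -0.11. Smc6, with 7.99 in the induced and 8.64 in the non-induced array, and Smc5, with 8.67 and 9.31, were the widest at -0.65 and -0.64; they form the SMC5/6 DNA repair complex, which holds a MAGE subunit, Nsmce3. Nsmce3 itself had 8.10 and 8.07, a difference of 0.03, and Ndn, the related gene encoding necdin, had 7.21 and 7.54, a difference of -0.33. Of the 8 PRAME ligase and target partners the widest were Eloc, a subunit of cullin ligases, at -0.66 and Lrr1 at -0.63, and the median was -0.06. Of 7 genes of p75 neurotrophin receptor and MAGE signalling 5 were above 0, with a median of 0.25. The widest were Bmi1, a polycomb subunit, at -0.79 and the apoptosis inhibitor Xiap at -0.71.

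Of 16 genes for repressors of cancer testis promoters, 15 were below 0, with a median of -0.27, beside a median of -0.03 over all genes at the floor. Dnmt3l, a cofactor of the de novo DNA methyltransferases, had 8.80 in the induced and 9.64 in the non-induced array (difference -0.84). Mga, part of the E2F6 and PCGF6 repressor complex, had 7.77 and 8.33, a difference of -0.57. None of the 16 reached log2 1. Of the DNA demethylation genes measured, Tet1 and Tet2 were at -0.38 and -0.35 and Tet3 at 0.13.

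Most other X-linked cancer testis genes were dim as well. Of the 29 in the list 15 were measured and 3 were at the floor, Fthl17a, Fmr1nb and Tex13b, with 6 above and 9 below 0 and a median of -0.07. Ssxb10 had 3.65 in the induced and 2.67 in the non-induced array (difference 0.98), and Tex11, needed for meiotic recombination, had 5.23 and 6.18, a difference of -0.95. Among 12 germ cell markers 4 were above and 8 below 0, with a median of -0.23. The synaptonemal complex genes Sycp3 and Sycp1 were lower by log2 1 or more, at -1.83 and -1.60, and Gfra1, the receptor of spermatogonial stem cells, was higher at 1.06. Of 10 markers of the 2-cell-like state 5 were measured, 2 above and 3 below 0, with a median of -0.41, and only Eif1a reached the floor. Usp17la was past the size at -1.16 and Usp17lc lay at 0.82, both below the floor. The 8 neural markers measured had a median of -0.06, and Stmn2 was lower at -1.19 and Pax6 higher at 1.12, the latter below the floor. The part of these marker genes in the values of the MAGE and PRAME genes was not tested.

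**Figure D5:**
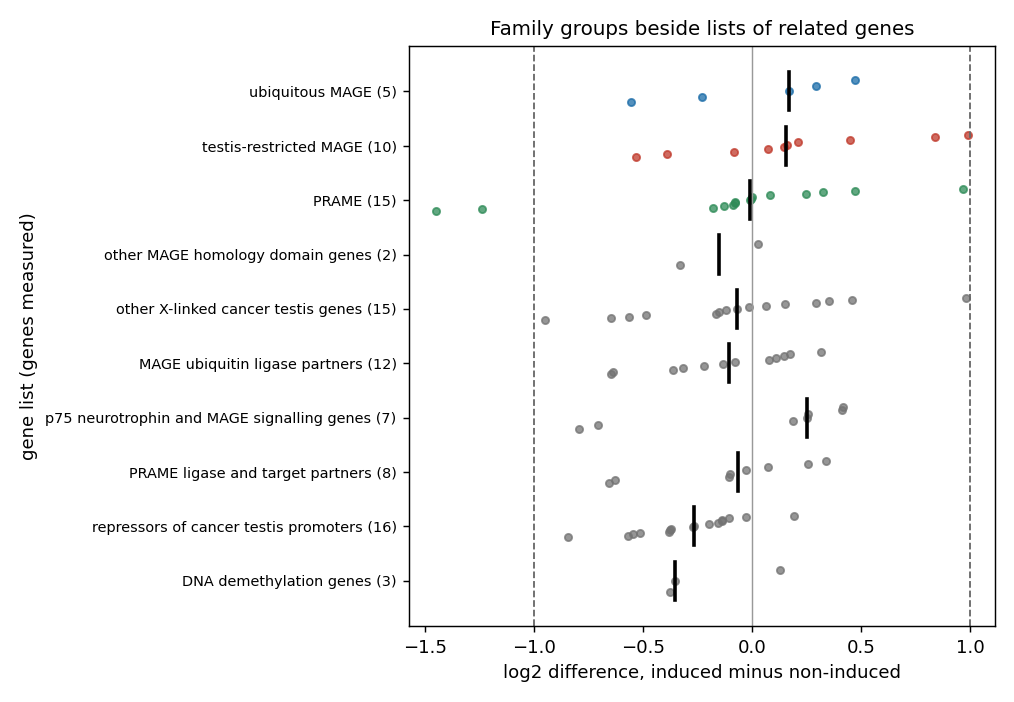
Log2 difference between the arrays (induced minus non-induced, x axis) of each gene in the 3 family groups (coloured) and in 7 lists of related genes (grey), with a black bar at each list's median and dashed lines at a log2 difference of 1 either way. Pramel20 and Pramel6 are the only points past a dashed line. Below 0 lie 15 of 16 repressors of cancer testis promoters, beside 5710 of all 10697 genes at the floor. Most of the 16 belong to the brightest signal class, whose median difference was -0.09.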

How the data were processed

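RNA (300 ng per array) of 1 induced and 1 non-induced ES cell sample was hybridized to Affymetrix Mouse Gene 1.0 ST arrays. The deposited probe set values are log2 signals, made by the authors with RMA and quantile normalization (software version, array annotation and genome build not given in the sources used here). Their range of 1.36 to 14.5 and the use of RMA were taken to show log2 units. RMA compresses differences of dim genes, and the number of arrays limits the precision. Of 35557 probe sets, 21789 had 1 platform symbol, 1621 several and 12147 none. A gene took its probe set with the highest mean. The floor was the median of all gene values (6.36) and the size a log2 difference of 1. RefSeq (GRCm38.p6) gave the chromosomes and promoter windows of all 30 members where listed.

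The members, lists and rules were chosen with earlier results of these data known. Named were members at the floor, past log2 1 or among the 3 widest each way in their group, and of each list the genes past log2 1 or the 2 widest, together with a few chosen for background. Alternatives were centring, a lowess trend, a second quantile normalization, an offset, other floors and sizes, and the mean of probe sets. Scripts (Python 3.11.15, pandas 2.3.3, statsmodels 0.14.6) were tested on simulated data.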

Additional observations from a re-analysis of the deposited data

Results flagged for a closer look

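The probe sets naming Pramel37, Pramel39, Pramel50 and BC080696 stand outside the comparison of single genes, since each names several genes. Their signal was higher after induction than without it, by up to 1.51 on the log2 scale. The probe sets naming Pramel34, Pramel47, Gm6367 and AA792892 stand outside it for the same reason and were higher by up to 1.06, of which centring left 0.959 and the offset of 32 0.34. For the first set these settings left up to 1.41 and 0.88. Both sets were below the floor of 6.36 in both arrays, and with 1 array per group neither difference was tested.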

How the results depend on the processing

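With 1 array per group no replicate could be left out, and depth does not apply to arrays. No paired analysis was possible because each group has 1 array. A value was taken to have moved at more than 0.1. The ubiquitous MAGE median of 0.17 became 0.033 with a lowess trend removed, 0.041 after a second quantile normalization, 0.030 as a mean and -0.23 over the genes at the floor. The ubiquitous minus testis-restricted difference of 0.02 became -0.15, -0.15, -0.16 and -0.44 under the same settings, so its sign was not settled. The last of these sets 3 ubiquitous genes against Mageb4 alone, which passed the floor in the induced array only, where it is the higher, so it is no comparison of the groups. Without the floor 2 members were lower by log2 1 instead of 0. Adding the shared probe sets, chosen after seeing the data, took the PRAME median from -0.01 to 0.10. The other 2 additions chosen then, leaving out the 2 pseudogenes and keeping X-linked members alone, moved no median by that much. Of the 30 genes, 27 kept their sign under 5 alternatives, and the others, Magea5, Pramel15 and Pramel25, had differences of at most 0.08 in size. Centring shifted all genes by -0.10. Pramel20 and Pramel6 fell under log2 1 with the offset of 32, at -0.67 and -0.51, and Magea6 passed it at 1.05 with the lowess trend removed and after the second quantile normalization, while with the offset it was 0.31.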
